A study of Caenorhabditis elegans with 6 samples.

Results

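The respiratory chain was read from both genomes of Caenorhabditis elegans, as 54 genes of the 47656 genes listed. A gene was taken if its symbol carried one of the names nuo-, nduf-, ucr-, asb- or asg- with a digit, if it was one of a fixed list of other subunit genes, or if it was a protein-coding gene of the mitochondrial genome. This gave 42 nuclear genes, of which 13 encode complex I, 5 complex II, 7 complex III, 1 cytochrome c, 7 complex IV and 9 complex V. The 12 mitochondrially encoded genes contribute 7 subunits to complex I, 1 to complex III, 3 to complex IV and 1 to complex V. The rule reads names and positions, so subunit genes under other names are not among the 54.

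Complexes I and II pass electrons from NADH and succinate to ubiquinone, complex III passes them on to cytochrome c, and complex IV hands them to oxygen. Complexes I, III and IV pump protons as they do so, and complex V, the ATP synthase, uses the proton gradient to make ATP. Every complex except complex II combines subunits made in the cytosol with subunits translated inside the mitochondrion, so products of both genomes are joined in the same enzyme. In the worm, mutants in several of these genes are known for altered lifespan, among them isp-1, nuo-6, gas-1 and mev-1.

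Whole animals, wild type in genotype, were exposed from the L4 larval stage for 11 days, and poly(A) RNA was sequenced from 6 libraries. The 3 ilimaquinone libraries came from animals given 100 µM ilimaquinone, a quinone-bearing sesquiterpenoid of marine sponges, in complete S-Basal medium. The 3 vehicle libraries came from animals in the same medium without it. Both groups carried 200 µM FUDR, a blocker of DNA synthesis that prevents progeny, and 100 µg/mL ampicillin, and animals had been raised at 20 °C. Whether the 3 libraries of a group are separate cultures is not stated in the labels, and p-values here therefore cover no more than the spread among the 6 samples.

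Libraries held 32155192 to 39244786 estimated counts, and 16506 genes were abundant enough to test. Levels of a gene across libraries are given as CPM, estimated counts scaled to a common library size with TMM factors, and levels between genes as TPM, which also corrects for gene length. Markers of muscle, pharynx, intestine, neurons, hypodermis, germline and sperm were detected in all 6 libraries, with no listed marker at 0. Vehicle library 1 stood apart. The 12 germline and oocyte markers summed to 559 to 736 CPM in the ilimaquinone libraries, against 2531, 796 and 928 CPM in vehicle libraries 1, 2 and 3. These groups did not overlap, since vehicle libraries 2 and 3 were also above every ilimaquinone library. The 6 hypodermal collagen markers summed to 185 to 301 CPM with ilimaquinone, against 1021, 231 and 256 CPM with vehicle, and the 8 neuronal markers to 2146 to 2367 CPM with ilimaquinone, against 1358, 2295 and 2264 CPM with vehicle. The 12 sperm markers summed to 16.6, 19.1 and 36.05 CPM with ilimaquinone, against 159, 32.9 and 65.02 CPM with vehicle, which overlapped. The 4 pharyngeal markers summed to 836, 850.2 and 775 CPM with ilimaquinone, against 565, 654 and 735 CPM with vehicle, which did not overlap, while the muscle and intestine sums did. The part of these markers in the results was not tested. Fold changes of genes named below as high in vehicle library 1 are given with and without it. The deposited loci of 27 of the 54 genes overlap another tested gene, and reads of overlapping genes could be shared, since no source used here states a strand setting.

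Whether ilimaquinone shifted the mRNAs of the chain in either genome was asked first at the level of the summed genes. The mitochondrially encoded genes took 1.08%, 0.968% and 0.781% of all counts in ilimaquinone libraries 1, 2 and 3, against 0.791%, 0.850% and 0.692% in vehicle libraries 1, 2 and 3. The means were 0.944 ± 0.153% with ilimaquinone and 0.777 ± 0.0797% with vehicle (SD, n = 3 each). Ilimaquinone libraries 1 and 2 were above every vehicle library and ilimaquinone library 3 fell inside the vehicle range, so the groups overlapped. The 42 nuclear genes took 0.917%, 0.896% and 0.907% of counts with ilimaquinone, against 0.961%, 0.938% and 0.896% with vehicle. Its groups also overlapped, and vehicle library 1 was the highest of the 6.

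**Figure D1:**
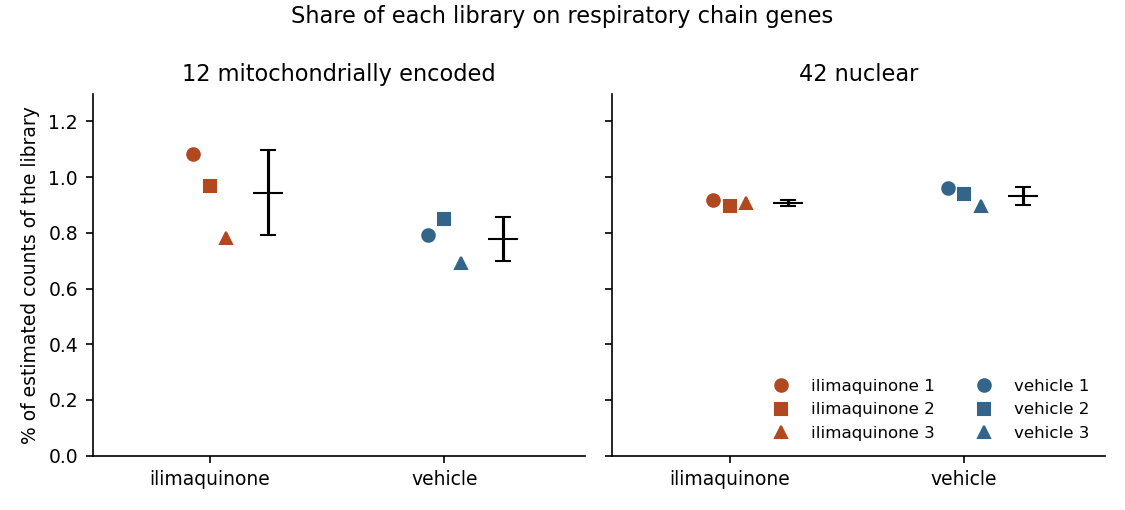
Share of each library's estimated counts (y axis, %) on the 12 mitochondrially encoded and the 42 nuclear respiratory chain genes. Points are libraries and the bars beside them give the mean and SD of each group (n = 3 each). Ilimaquinone library 1 was the highest of the mitochondrial panel at 1.08%, while all nuclear shares lay between 0.896% and 0.961%.

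The ratio of mitochondrially encoded to nuclear counts followed the first of these sums. It was 1.18, 1.08 and 0.861 in the ilimaquinone libraries, against 0.822, 0.906 and 0.772 in the vehicle libraries. The ratio was above 1 in 2 libraries, both of them from ilimaquinone animals. In whole-animal RNA, fewer cells of a type and less RNA per cell cannot be told apart.

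Gene by gene, no member passed the test. By edgeR, with p-values adjusted over all genes by the Benjamini-Hochberg method, the test called 0 of the 11 tested mitochondrially encoded genes and 0 of the 41 tested nuclear genes at an adjusted p under 0.05, where 1.47% of all genes tested were called. ND4L and cox-6B were too low to test. At an unadjusted p under 0.05, edgeR passed 5 mitochondrially encoded genes (ND4, ATP6, COX1 and ND1 higher, ND2 lower) and 0 nuclear genes, against 21.9% of all genes. DESeq2 called ATP6 and ND4 higher, at adjusted p of 0.0121 and 0.0161, and 0 nuclear genes, against 11.0% of all genes. Without vehicle library 1, edgeR again called 0 of both genomes, against 4.31% of all genes, and passed 4 mitochondrially encoded and 2 nuclear genes at an unadjusted p under 0.05, against 22.7%. With all libraries, the CPM of the groups did not overlap for 4 of the 11 mitochondrially encoded genes, against 30.8% of all genes.

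Fold changes of most nuclear genes lay closer to 0 than those of most mitochondrially encoded genes. The median log2 fold change, ilimaquinone over vehicle, was 0.23 over the 11 mitochondrially encoded genes, which ranged from -1.05 to 0.99. The low end of that range is ND2, which had only 8 to 26 counts in a library. The 8 mitochondrially encoded genes with over 100 TPM ranged from 0.11 to 0.99. The median was -0.018 over the 41 nuclear genes, which ranged from -0.76 to 0.18, and -0.020 over all genes tested. The 95% interval of the fold change stayed within 1.5-fold either way for 36 of the 41 nuclear genes and for 2 of the 11 mitochondrially encoded genes, against 30.1% of all genes. The nuclear genes were abundant, at a median of 129 TPM where all genes tested had a median of 10.1 TPM, and the median of their coefficients of variation over the 6 libraries was 6.24%, against 21.8% for all genes.

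Levels of the mitochondrially encoded mRNAs fell into 2 classes in the poly(A) libraries. Since poly(A) RNA was sequenced, these levels need not follow the abundance of each mRNA in the animals. COX3, COX1, CYTB, COX2, ND1, ND5, ATP6 and ND4 averaged 261 to 3874 TPM over the 6 libraries, whereas ND6, ND3, ND2 and ND4L averaged 0.0796 to 2.02 TPM. COX1 and COX3 alone held 69.6%, 69.4% and 69.4% of the mitochondrially encoded counts in the ilimaquinone libraries, against 70.1%, 69.5% and 68.8% in the vehicle libraries. All 8 genes of the abundant class had a positive log2 fold change, with a median of 0.32 and a range of 0.11 to 0.99. They do not count as 8 separate observations, since all 8 were highest in ilimaquinone library 1 and lowest among the ilimaquinone libraries in library 3.

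Complex V has 1 mitochondrially encoded subunit here, ATP6, a part of the proton channel of the ATP synthase (mitochondrial genome, 2634-3233, WBcel235). ATP6 had 244, 182 and 111 CPM in the ilimaquinone libraries, against 78.99, 101 and 89.7 CPM in the vehicle libraries. Every ilimaquinone library was above every vehicle library, and the ilimaquinone libraries lay much farther apart than the vehicle libraries. The means were 179 ± 66.8 CPM with ilimaquinone and 89.9 ± 11.01 CPM with vehicle (SD, n = 3 each), the log2 fold change was 0.99 ± 0.27 with an interval of 0.34 to 1.64, and edgeR's adjusted p was 0.133. The log2 fold change was 0.71 without ilimaquinone library 1, 1.24 without ilimaquinone library 3 and 0.91 without vehicle library 1, with edgeR's adjusted p above 0.05 in each.

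ATP6 starts inside the last bases of ND1, whose locus is 1763-2638, and the pair was compared within each library. The TPM ratio of ATP6 to ND1 was 0.837, 0.636 and 0.467 in the ilimaquinone libraries, against 0.388, 0.418 and 0.411 in the vehicle libraries. The ilimaquinone ratios were all above the vehicle ratios and spread far more, with means of 0.646 ± 0.185 with ilimaquinone and 0.406 ± 0.0155 with vehicle (SD, n = 3 each). ATP6 had the larger log2 fold change of the pair, 0.99 against 0.30 for ND1, so the separation of this ratio is no separate test. Reads from the bases that both loci share could be counted to either gene.

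Complex I has 7 mitochondrially encoded subunits, all in its membrane arm. ND4, a proton-pumping subunit (6506-7735), had 369, 331 and 245 CPM in the ilimaquinone libraries, against 189, 223 and 205 CPM in the vehicle libraries. The groups did not overlap, with ilimaquinone library 3 closest to the vehicle libraries. The means were 315 ± 63.2 CPM with ilimaquinone and 205 ± 17.1 CPM with vehicle (SD, n = 3 each), and the log2 fold change of 0.62 ± 0.16 (interval 0.24 to 1.00) had an edgeR adjusted p of 0.123, the smallest among the members. Without ilimaquinone library 1 the log2 fold change was 0.49, and without vehicle library 1 it was 0.56.

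ND5, another pumping subunit (11691-13274), had 823, 703 and 622 CPM in the ilimaquinone libraries, against 506, 657 and 525 CPM in the vehicle libraries. Ilimaquinone library 3, at 622 CPM, lay below vehicle library 2, so the groups overlapped, and the log2 fold change was 0.35 ± 0.15 with an edgeR adjusted p of 0.235. ND1, which sits beside the ubiquinone pocket, had 426, 417 and 346 CPM in the ilimaquinone libraries, against 297, 352 and 319 CPM in the vehicle libraries. Here too only ilimaquinone library 3 fell inside the vehicle range, and the log2 fold change was 0.30 ± 0.12 with an edgeR adjusted p of 0.208.

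The other 4 subunits of complex I from the mitochondrial genome were barely detected. ND2 (3418-4266) had 15, 8 and 10 counts in the ilimaquinone libraries, against 15, 26 and 22 counts in the vehicle libraries. In CPM the ND2 groups were just apart, at 0.389 CPM in the highest ilimaquinone library and 0.429 CPM in the lowest vehicle library. Its log2 fold change was -1.05 ± 0.41 and edgeR's adjusted p was 0.207.

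ND6 (113-547) had 19, 10 and 26 counts in the ilimaquinone libraries, against 35, 39 and 20 counts in the vehicle libraries, with a log2 fold change of -0.88 ± 0.44 and an edgeR adjusted p of 0.279. ND3 (11356-11691) had 7, 9 and 24 counts in the ilimaquinone libraries, against 13, 17 and 9 counts in the vehicle libraries, with a log2 fold change of -0.060 ± 0.57 and an edgeR adjusted p of 0.960. The groups of both genes overlapped. ND4L (549-782) had 0, 0 and 2 counts in the ilimaquinone libraries, against 2, 1 and 0 counts in the vehicle libraries, and was not tested. A count of 0 allows up to 3 counts, or 0.0764 to 0.0933 CPM depending on the library, by counting error alone.

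Complex IV takes its catalytic core from COX1, COX2 and COX3. COX1, which holds the heme and copper centre where oxygen is reduced (7845-9422), had 4589, 4117 and 3489.7 CPM in the ilimaquinone libraries, against 2975, 3376 and 2944 CPM in the vehicle libraries. All 3 ilimaquinone libraries were above all 3 vehicle libraries, with ilimaquinone library 3 and vehicle library 2 the closest. The means were 4065 ± 551 CPM with ilimaquinone and 3098 ± 241 CPM with vehicle (SD, n = 3 each), and the log2 fold change was 0.39 ± 0.14 (interval 0.070 to 0.71) with an edgeR adjusted p of 0.180.

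COX2, which accepts electrons from cytochrome c (9649-10344), had 482, 374 and 313 CPM in the ilimaquinone libraries, against 326, 354 and 314 CPM in the vehicle libraries. COX3, a core subunit without a redox centre (5678-6445), had 3077, 2566 and 1999.7 CPM in the ilimaquinone libraries, against 2146, 2595 and 2050.3 CPM in the vehicle libraries. In both genes ilimaquinone library 1 was the highest and ilimaquinone library 3 the lowest of all 6, so the groups overlapped. The log2 fold change was 0.23 ± 0.16 for COX2 (edgeR adjusted p 0.415) and 0.17 ± 0.18 for COX3 (edgeR adjusted p 0.592).

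Complex III has 1 mitochondrially encoded subunit, cytochrome b. CYTB (4504-5616) had 1006, 934 and 782 CPM in the ilimaquinone libraries, against 785, 933 and 812 CPM in the vehicle libraries. Library 3 of the ilimaquinone group was the lowest of all 6 libraries, and the log2 fold change of 0.11 ± 0.13 had an edgeR adjusted p of 0.641. Set against CYTB within a library, ND5 stood at TPM ratios of 0.528 to 0.575 in the ilimaquinone libraries and 0.453 to 0.495 in the vehicle libraries, which did not overlap. The TPM ratio of COX1 to COX3 was 0.726 to 0.849 with ilimaquinone and 0.633 to 0.699 with vehicle, and that of ND4 to COX3 was 0.0748 to 0.0805 with ilimaquinone and 0.0536 to 0.0623 with vehicle. These ratios were chosen after the values were seen, each with a gene of larger fold change over a gene of smaller fold change. Their separation is therefore no test, and whether the mitochondrially encoded genes moved by a common factor was not tested.

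**Figure D2:**
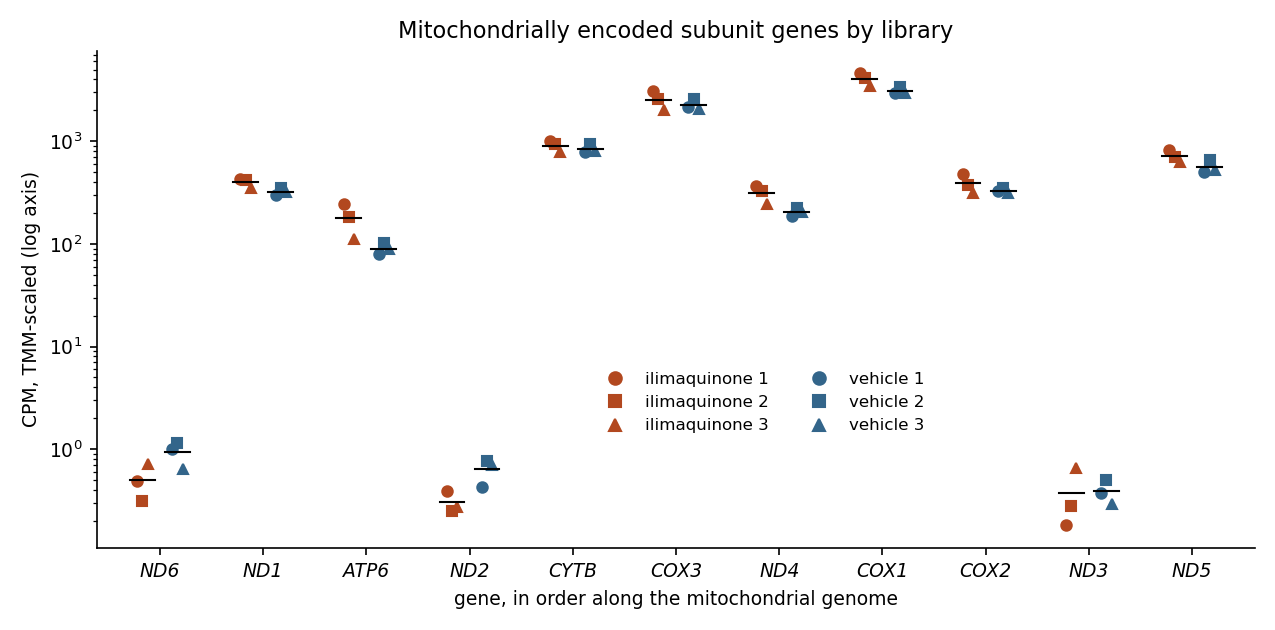
CPM of the 11 tested mitochondrially encoded genes (log y axis), in their order along the mitochondrial genome. Each marker is 1 library, with ilimaquinone left of vehicle, and the horizontal lines are group means. ND6, ND2 and ND3 sit between 0.181 and 1.15 CPM and the other 8 genes at or above 79.0 CPM, and ilimaquinone library 1 is the top point of each of those 8.

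The mitochondrial ribosomal RNAs, which are not protein-coding, were not measurably higher with ilimaquinone. The libraries were made from poly(A) RNA, so these counts need not follow the level of the ribosomal RNAs. The small ribosomal RNA had 85.5, 86.9 and 65.1 CPM in the ilimaquinone libraries, against 67.3, 103 and 81.7 CPM in the vehicle libraries. The large one had 79.1, 60.6 and 52.2 CPM in the ilimaquinone libraries, against 80.8, 115 and 74.2 CPM in the vehicle libraries. Groups overlapped for both, at log2 fold changes of -0.09 ± 0.19 and -0.49 ± 0.22 and edgeR adjusted p of 0.798 and 0.239.

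Among the nuclear members of complex I, 13 of 13 were tested, 0 were called and the median log2 fold change was 0.032. The most abundant, nuo-1, encodes the subunit that binds NADH (chromosome II, 11097837-11100146) and averaged 170.3 TPM. It had 227, 223 and 233 CPM in the ilimaquinone libraries, against 214, 226 and 203 CPM in the vehicle libraries. Vehicle library 2 lay inside the ilimaquinone range, and the log2 fold change was 0.088 ± 0.082 with an edgeR adjusted p of 0.537.

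The nuclear complex I gene with the smallest p was nduf-5, an accessory subunit (chromosome I, 2996631-3003512), with 58.2, 58.1 and 61.1 CPM in the ilimaquinone libraries, against 53.5, 51.6 and 51.6 CPM in the vehicle libraries. All ilimaquinone libraries were above all vehicle libraries. The log2 fold change was 0.18 ± 0.082 and edgeR's adjusted p was 0.255. For nuo-2, a core subunit of the peripheral arm, the groups were also apart, with 71.5, 74.4 and 76.7 CPM in the ilimaquinone libraries, against 67.8, 70.7 and 60.3 CPM in the vehicle libraries. Its log2 fold change was 0.16 ± 0.095 and its edgeR adjusted p was 0.341. Groups that do not overlap were found for 30.8% of all genes tested, and for 8 of the 41 nuclear members.

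Several complex I genes are known from worm mutants. The gene gas-1, whose mutants are hypersensitive to volatile anaesthetics, had 151, 149 and 154 CPM in the ilimaquinone libraries, against 124, 155 and 141 CPM in the vehicle libraries, and the groups overlapped. Its log2 fold change was 0.12 ± 0.10 with an edgeR adjusted p of 0.510. The gene nuo-6, whose mutants are long-lived, was at -0.065 ± 0.088 on the log2 scale (edgeR adjusted p 0.678) and lpd-5, an accessory subunit, at -0.17 ± 0.13 (edgeR adjusted p 0.454). Both were highest in vehicle library 1, and without it nuo-6 was at -0.017 and lpd-5 at -0.042.

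The remaining nuclear members of complex I were nuo-3, nuo-4, nuo-5, nduf-6, nduf-7, nduf-9 and nduf-2.2. The core subunits nuo-5 and nduf-7 were at log2 fold changes of 0.032 ± 0.082 and 0.067 ± 0.084, and nuo-4, nduf-6 and nduf-9 at 0.044 ± 0.10, -0.040 ± 0.086 and -0.025 ± 0.082. The least abundant nuclear gene with counts, nuo-3, had 4.74, 4.86 and 7.18 CPM in the ilimaquinone libraries, against 8.79, 5.88 and 6.20 CPM in the vehicle libraries. Vehicle library 1 was again the highest, and the log2 fold change was -0.31 ± 0.25 with it and -0.12 without it.

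Complex II is built from nuclear genes alone and is also the succinate dehydrogenase of the citric acid cycle. None of its 5 genes was called, and their median log2 fold change was -0.057. Its iron-sulfur subunit gene sdhb-1, the most abundant at 184 TPM, had 165, 159.6 and 169 CPM in the ilimaquinone libraries, against 163, 167 and 183 CPM in the vehicle libraries. Groups overlapped, with a log2 fold change of -0.057 ± 0.084 and an edgeR adjusted p of 0.703.

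The gene mev-1 encodes the cytochrome b subunit of complex II, and its mutants are short-lived and sensitive to oxidative stress. It had 129, 124 and 131 CPM in the ilimaquinone libraries, against 127, 139 and 133 CPM in the vehicle libraries. Vehicle library 1 lay inside the ilimaquinone range and the other vehicle libraries above it, at a log2 fold change of -0.053 ± 0.080 and an edgeR adjusted p of 0.709. The other membrane anchor, sdhd-1, had 89.8, 76.4 and 88.9 CPM in the ilimaquinone libraries, against 86.8, 101 and 104 CPM in the vehicle libraries. Vehicle libraries 2 and 3 were its highest, and its log2 fold change was -0.20 ± 0.11 with an edgeR adjusted p of 0.337.

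In complex III, 0 of 7 genes were called and the median log2 fold change was 0.039. The most abundant gene was isp-1, the Rieske iron-sulfur protein (chromosome IV, 8132686-8136539), at 269.6 TPM. It had 354, 338 and 348 CPM in the ilimaquinone libraries, against 302, 353 and 325 CPM in the vehicle libraries. Vehicle library 2 fell among the ilimaquinone libraries, and the log2 fold change was 0.086 ± 0.091 with an edgeR adjusted p of 0.589.

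The gene cyc-1, which encodes the heme-bearing cytochrome that reduces cytochrome c, had 267, 255 and 270.0 CPM in the ilimaquinone libraries, against 270.4, 283 and 276 CPM in the vehicle libraries. The groups came within 1 CPM of each other without overlapping, and the log2 fold change was -0.066 ± 0.078 with an edgeR adjusted p of 0.633. A small subunit gene, ucr-11, had 66.01, 67.9 and 62.8 CPM in the ilimaquinone libraries, against 58.01, 59.5 and 59.7 CPM in the vehicle libraries. All its ilimaquinone libraries were above its vehicle libraries, with a log2 fold change of 0.15 ± 0.082 and an edgeR adjusted p of 0.312. The core subunit gene ucr-1 was at -0.069 ± 0.079.

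Cytochrome c, the mobile carrier between complexes III and IV, is represented by cyc-2.1 (chromosome IV, 4747895-4749031). It was the most abundant nuclear member, at 867 TPM. It had 572, 539.8 and 589 CPM in the ilimaquinone libraries, against 592, 595 and 569 CPM in the vehicle libraries, and the groups overlapped. The log2 fold change was -0.046 ± 0.084, with an interval of -0.25 to 0.15 and an edgeR adjusted p of 0.764.

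The nuclear subunits of complex IV surround the catalytic core. Of 7 genes 6 were tested and 0 called, with a median log2 fold change of 0.035. The most abundant, cox-5A (535 TPM), had 360.3, 349 and 353 CPM in the ilimaquinone libraries, against 301, 379 and 371 CPM in the vehicle libraries. Vehicle library 1 was the lowest and vehicle library 2 the highest, and the small fold change of 0.015 ± 0.11 in log2 (edgeR adjusted p 0.948) changed sign with the scaling.

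Groups were apart for 2 genes of complex IV, in opposite directions. The gene cox-4 had 243, 217 and 247 CPM in the ilimaquinone libraries, against 248, 262 and 266 CPM in the vehicle libraries, a log2 difference of -0.13 ± 0.089 (edgeR adjusted p 0.397), and cox-6C had 158, 157 and 166 CPM in the ilimaquinone libraries, against 135, 154 and 152 CPM in the vehicle libraries, at 0.13 ± 0.088 (edgeR adjusted p 0.412). Ilimaquinone library 3 and vehicle library 1 were nearly level for cox-4. The log2 fold changes of cox-5B, cox-6A and cox-7C were 0.014 ± 0.091, 0.055 ± 0.086 and 0.11 ± 0.083.

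The seventh gene, cox-6B, was listed at 0 in all 6 libraries. Its deposited locus on chromosome III (2699663-2786859) overlaps Y71H2AM.4 (2786193-2788028), which held 9912, 7778 and 9270 counts in the ilimaquinone libraries, against 8225, 8340 and 6954 counts in the vehicle libraries. In the Ensembl annotation Y71H2AM.4 lies on the opposite strand and covers every cox-6B exon but 1 of 22 bases. The level of cox-6B was therefore not read from these data.

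Complex V had 0 of 9 nuclear genes called and a median log2 fold change of -0.019. Its catalytic beta subunit gene atp-2, the most abundant at 803 TPM, had 1281, 1211 and 1260.2 CPM in the ilimaquinone libraries, against 1212, 1257 and 1334 CPM in the vehicle libraries. Libraries of both groups were interleaved, with a log2 fold change of -0.019 ± 0.090 and an edgeR adjusted p of 0.913. The alpha subunit gene atp-1 had 1222, 1179.8 and 1175 CPM in the ilimaquinone libraries, against 1229, 1284 and 1355 CPM in the vehicle libraries. All its ilimaquinone libraries were below its vehicle libraries, and the log2 fold change was -0.11 ± 0.090 with an edgeR adjusted p of 0.472.

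The stalk subunit genes atp-3, atp-4 and atp-5 were at log2 fold changes of 0.047 ± 0.085, 0.031 ± 0.093 and -0.072 ± 0.091. Against ATP6 at 0.99 ± 0.27, the 9 nuclear members of the same enzyme thus ran from -0.42 to 0.15. The low end is asb-1, which was at 0.12 without vehicle library 1. A further 6 ATP synthase subunit genes outside the members, read below, ran from -0.017 to 0.23. Whether the 2 genomes differed in their change was not tested.

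**Figure D3:**
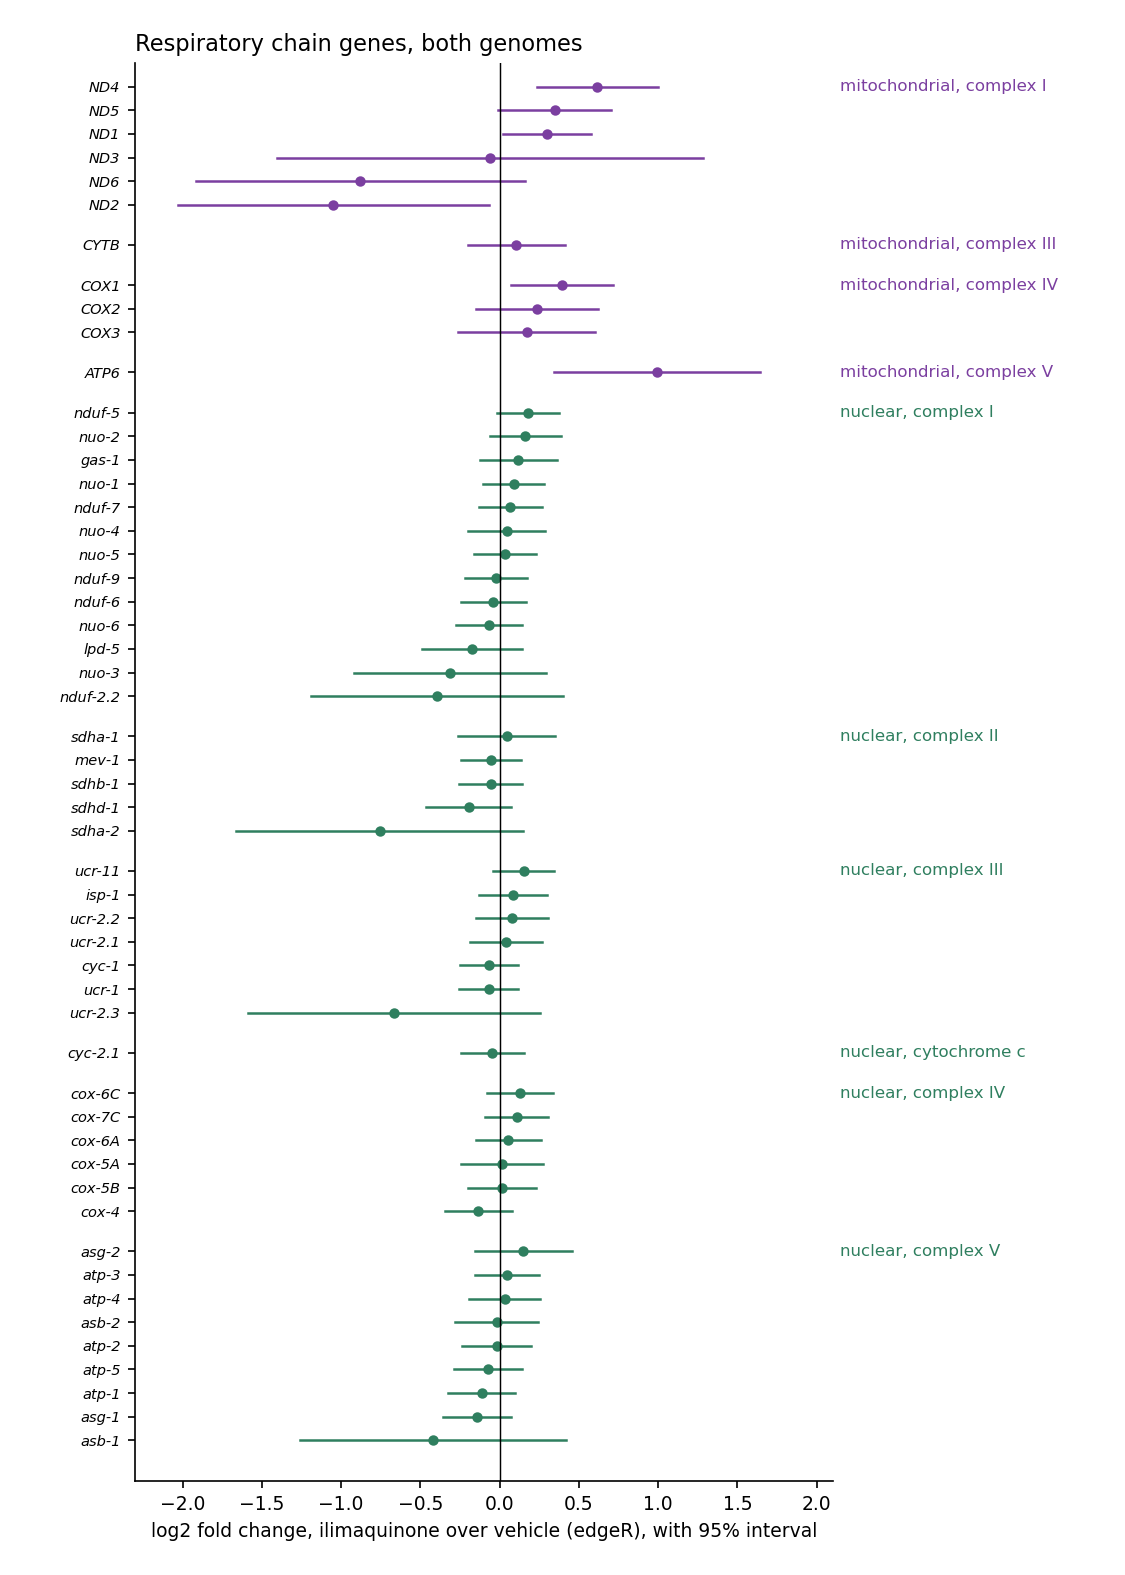
Log2 fold change, ilimaquinone over vehicle, of the 52 tested genes with 95% intervals from edgeR (x axis), grouped by genome and complex. Zero is marked by the vertical line. Nuclear genes cluster near it except sdha-2, ucr-2.3, asb-1, nduf-2.2 and nuo-3, all highest in vehicle library 1, and ATP6 lies farthest to the right at 0.99. Standard errors of sdha-2, ucr-2.3, asb-1 and nduf-2.2 were 0.33 to 0.39 with that library and 0.12 to 0.16 without it. For nuo-3 the standard error was 0.25 with it and 0.21 without it.

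Some subunits of the chain are encoded by a pair of genes in the worm genome, with a copy on an autosome and a copy on the X chromosome, and in 4 such pairs the autosomal copy was the rarer one and was high in vehicle library 1. The gene sdha-2 (chromosome I), which encodes the flavoprotein of complex II like X-linked sdha-1, had 22.4, 19.4 and 25.8 CPM in the ilimaquinone libraries, against 64.1, 24.9 and 25.3 CPM in the vehicle libraries. Leaving vehicle library 1 aside, the groups overlapped. Ilimaquinone over vehicle was -0.76 ± 0.38 on the log2 scale (edgeR adjusted p 0.285) with that library, the lowest of the nuclear members, and -0.16 without it.

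The same shape was seen for ucr-2.3 (chromosome III), a core subunit of complex III, with 18.8, 16.7 and 20.6 CPM in the ilimaquinone libraries, against 50.5, 18.4 and 20.2 CPM in the vehicle libraries. Its log2 fold change was -0.67 ± 0.39 with vehicle library 1 and -0.049 without it. The peripheral stalk gene asb-1 (chromosome III, 4594531-4595821) had 32.6, 26.9 and 35.6 CPM in the ilimaquinone libraries, against 69.3, 28.8 and 29.3 CPM in the vehicle libraries. Its log2 fold change was -0.42 ± 0.35 with vehicle library 1 and turned positive, to 0.12, without it. Complex I subunit nduf-2.2 (chromosome III), with 20.9, 18.6 and 25.96 CPM in the ilimaquinone libraries, against 44.9, 19.01 and 22.1 CPM in the vehicle libraries, went the same way, at -0.39 ± 0.33 with vehicle library 1 and 0.081 without it.

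Their X-linked counterparts did not share the high value. The gene sdha-1 had 211, 220.1 and 212 CPM in the ilimaquinone libraries, against 169.9, 232 and 221 CPM in the vehicle libraries, and asb-2 had 336, 336 and 347 CPM in the ilimaquinone libraries, against 296, 364 and 372 CPM in the vehicle libraries. In both, vehicle library 1 was the lowest of the 6. The core subunit copies ucr-2.1 and ucr-2.2 were at log2 fold changes of 0.039 ± 0.10 and 0.077 ± 0.10. For sdha-1 the log2 fold change of 0.044 ± 0.13 turned to -0.085 without vehicle library 1.

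In TPM, sdha-2 stood at 13.02%, 10.8% and 14.9% of sdha-1 in the ilimaquinone libraries, against 46.2%, 13.1% and 14.02% in the vehicle libraries. For asb-1 relative to asb-2 the values were 11.1%, 9.14% and 11.7% with ilimaquinone, against 26.8%, 9.03% and 8.98% with vehicle. Vehicle library 1 was the highest in both pairs. Leaving it aside, the groups overlapped for sdha-2 over sdha-1, whereas for asb-1 over asb-2 the 3 ilimaquinone libraries were above vehicle libraries 2 and 3. The ratio of ucr-2.3 to ucr-2.1 was 8.20% to 9.49% with ilimaquinone and 8.07% to 25.8% with vehicle. That of nduf-2.2 to gas-1, a pair chosen after its values were seen, was 13.5% to 18.3% with ilimaquinone and 13.3% to 39.4% with vehicle.

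The pair asg-1 and asg-2, small membrane subunits of complex V, differed from these in that both copies were about equally abundant. The autosomal asg-1 (chromosome I) had 41.4, 43.9 and 41.3 CPM in the ilimaquinone libraries, against 48.9, 44.9 and 45.9 CPM in the vehicle libraries, and asg-2 had 117, 109 and 107 CPM in the ilimaquinone libraries, against 84.5, 117 and 99.7 CPM in the vehicle libraries. All ilimaquinone libraries were below all vehicle libraries for asg-1, a log2 difference of -0.14 ± 0.091 (edgeR adjusted p 0.379), whereas asg-2 overlapped at 0.15 ± 0.13 (edgeR adjusted p 0.505). Without vehicle library 1, where asg-1 was highest, asg-1 was at -0.11. As a percentage of asg-2, asg-1 stood at 84.1%, 95.5% and 91.5% with ilimaquinone, against 138%, 91.6% and 109% with vehicle.

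**Figure D4:**
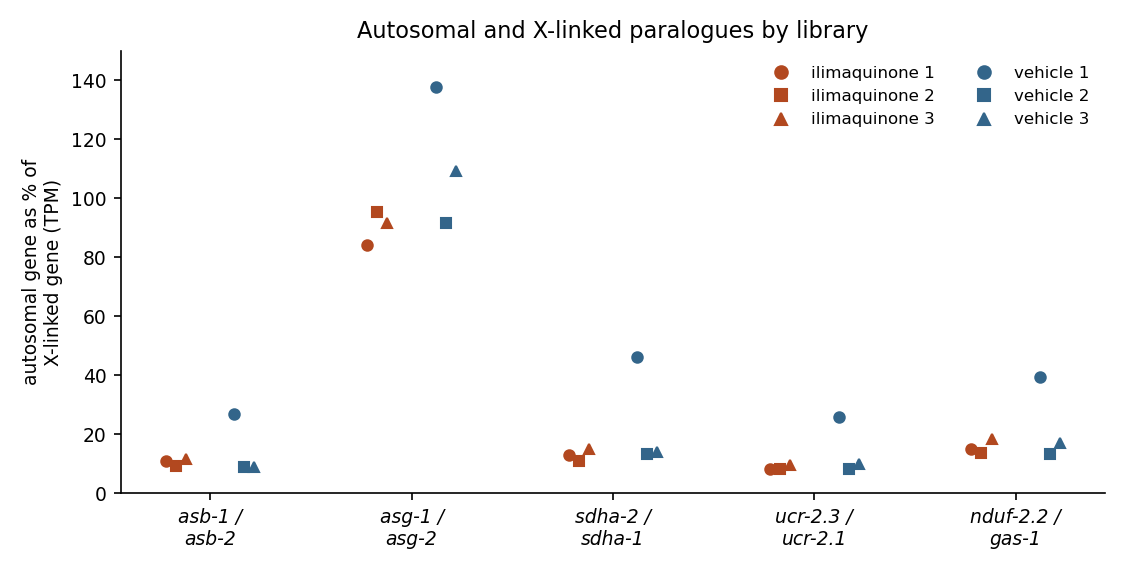
TPM of the autosomal copy as a percentage of the X-linked copy (y axis) for 5 pairs of paralogous subunit genes, with 1 marker per library and ilimaquinone left of vehicle. In every pair the highest point is vehicle library 1, at 25.8% to 138%.

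The chromosome of a gene went with its value in vehicle library 1 over all genes tested as well as among the members. The X-linked members are all copies from the paralogues above. All 6 X-linked members (gas-1, sdha-1, ucr-2.1, ucr-2.2, asb-2 and asg-2) were lower in vehicle library 1 than in both other vehicle libraries, at 0.75 to 0.90 of their mean. Of the 35 tested autosomal members, 19 were lower than both and 11 higher than both, with a median ratio of 0.97. Over all genes tested the median ratio was 0.852 on the X chromosome and 1.01 on the autosomes. Germline and oocyte markers were high in the same library, as given above, and their part in these values was not tested.

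Transcript models split a few members. Of the 5 members with more than 1 transcript in the table, ucr-1 varied most: its main transcript had 83.2, 169 and 77.0 TPM in the ilimaquinone libraries, against 176, 177 and 167 TPM in the vehicle libraries. A second ucr-1 transcript had 85.1, 0.00955 and 97.9 TPM in the ilimaquinone libraries, against 22.4, 0.00281 and 0.0191 TPM in the vehicle libraries. The second transcript was high in ilimaquinone libraries 1 and 3 and near 0 in ilimaquinone library 2, and transcripts were not tested. The sum over ucr-1 transcripts did not follow it, at 192 ± 11.9 TPM with ilimaquinone and 194 ± 14.8 TPM with vehicle (SD, n = 3 each).

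Genes that build and serve the chain without being counted among its subunits were read in 6 lists. Of 21 tested assembly factors 0 were called, with a median log2 fold change of 0.025, and the smallest p was that of nuaf-1, a complex I assembly factor, at 0.32 ± 0.13, with an adjusted p of 0.207 by edgeR. Of 7 genes for replication and transcription of mitochondrial DNA 0 were called, at a median of 0.035, and mtss-1, the single-stranded DNA binding protein, was at -0.26 ± 0.12 (edgeR adjusted p 0.249).

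Among 71 mitochondrial ribosomal protein genes edgeR called 0, at a median log2 fold change of -0.019, and passed 3 higher and 1 lower at an unadjusted p under 0.05, where 21.9% of all genes tested passed. The gene with the smallest p, mrps-11, had 97.1, 98.9 and 89.4 CPM in the ilimaquinone libraries, against 75.2, 70.2 and 73.98 CPM in the vehicle libraries. The groups did not overlap, the log2 fold change was 0.38 ± 0.085, and the adjusted p was 0.0921 by edgeR, while DESeq2 called it, as the 1 gene of this list. Of 4 mitochondrial translation factors 0 were called, with gfm-1, an elongation factor, at 0.20 ± 0.088 (edgeR adjusted p 0.239). Of 6 ATP synthase subunits named only by sequence name 0 were called, with Y82E9BR.3, which encodes the c subunit of the rotor ring, at 0.23 ± 0.11 (edgeR adjusted p 0.278).

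The list of carriers, ATP synthase inhibitors and other enzymes that feed quinone held the 1 called gene. Of its 12 tested genes, sqrd-1 rose with ilimaquinone, where 1.47% of all genes tested were called. It encodes sulfide:quinone oxidoreductase, which oxidises hydrogen sulfide in mitochondria and passes the electrons to ubiquinone (chromosome IV, 14219860-14224440). It had 37.6, 41.2 and 41.9 CPM in the ilimaquinone libraries, against 25.8, 25.9 and 23.7 CPM in the vehicle libraries. Every ilimaquinone library was above every vehicle library, and each group was tight. The means were 40.2 ± 2.32 CPM with ilimaquinone and 25.1 ± 1.24 CPM with vehicle (SD, n = 3 each), and the log2 fold change was 0.68 ± 0.10 (interval 0.43 to 0.93) with an edgeR adjusted p of 0.0398, close to the threshold. The call was lost with library sizes alone, without the filter on low counts, with limma on TPM and when any library but vehicle library 1 was left out.

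A second enzyme that feeds ubiquinone, gpdh-3, the mitochondrial glycerol-3-phosphate dehydrogenase, was chosen after its values were seen. It had 149, 143 and 156 CPM in the ilimaquinone libraries, against 117, 102 and 95.9 CPM in the vehicle libraries. The groups were apart, at a log2 fold change of 0.51 ± 0.10, and edgeR's adjusted p was 0.0725 with all libraries and 0.0157 without vehicle library 1. Without that library edgeR called 4.31% of all genes, against 1.47% with all libraries. When any other library was left out, edgeR called 0 genes of this list higher.

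In the same list, ant-1.1, the main carrier that exchanges ADP for ATP, had 5172, 4817 and 4768 CPM in the ilimaquinone libraries, against 3729, 4908 and 4241 CPM in the vehicle libraries. Vehicle library 2 lay inside the ilimaquinone range, and the log2 fold change was 0.20 ± 0.13 with an edgeR adjusted p of 0.397. Its rarer relatives ant-1.3 and ant-1.4 and the second cytochrome c gene cyc-2.2 were at -0.93 ± 0.35, -1.97 ± 0.62 and -2.07 ± 0.78, and all 3 were highest in vehicle library 1. Without it their log2 fold changes were -0.43, -1.26 and -0.82. The locus of cyc-2.2 overlaps cubn-1, and reads could be shared there. None of the 3 was called by edgeR, with 0.164 for ant-1.4 the smallest adjusted p. Over the list 3 genes passed an unadjusted p under 0.05 upward and 3 downward, with a median of 0.089, where 21.9% of all genes tested passed in either direction.

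**Figure D5:**
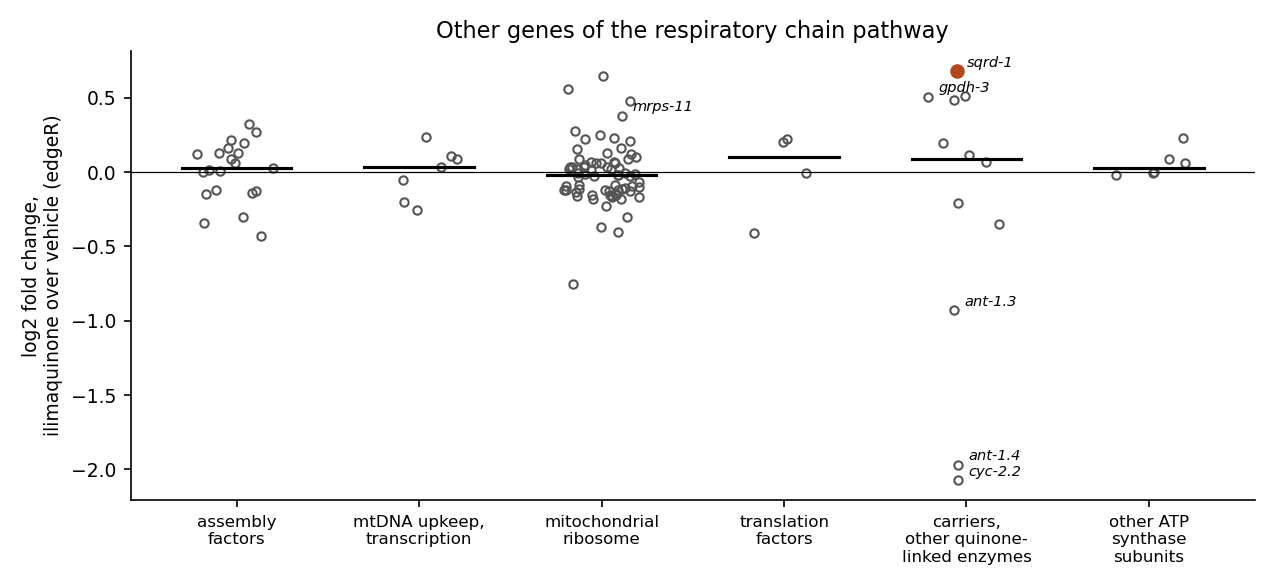
Log2 fold change, ilimaquinone over vehicle, of the tested genes in 6 lists that assemble, express or serve the respiratory chain (y axis). Each open point is a gene that was not called, the filled point is sqrd-1, the called gene, at 0.68, and bars are list medians.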

How the data were processed

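Whole-worm poly(A) RNA was sequenced in 6 libraries. Per the labels' protocols, a stranded mRNA kit was used on 1 µg of RNA for each library. HISAT2 2.1.0, SAMtools 1.9 and bcl2fastq 2.20.0 are named in the submitters' processing notes, with the build WBcel235. No source used here names the counting program, the strand setting or the release of the annotation. Per the file headers, the authors deposited read counts per gene and per transcript, which are called estimated counts here because the way they were made is unknown. They were whole numbers, so no rounding was needed. The TPM values that the authors deposited served for levels between genes, for transcripts and for 1 alternative test. The other 12 deposited columns of values per library, in FPKM, were not used.

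Groups were read from the sample titles. Counts were tested with edgeR 4.0.16 in R 4.3.3, by its quasi-likelihood F-test without covariates, after the filterByExpr filter and TMM scaling. P-values were adjusted over all 16506 genes tested by the Benjamini-Hochberg method, at a threshold of 0.05. Standard errors are the log2 fold change over the square root of F, and intervals are at 95%. Libraries held 32155192 to 39244786 counts, which had a biological coefficient of variation of 28.4%. The limit that a count of 0 allows is 3 counts per library and covers counting error only.

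The members and lists were chosen with earlier results of these data known. Named were all mitochondrially encoded genes, from each nuclear complex the most abundant gene and the 2 with the smallest p, the paralogue pairs, genes known from mutants, and from each other list the called gene or the one with the smallest p. The remaining members were added so that each is accounted for. The genes gpdh-3, cyc-2.2 and those of the ADP/ATP carriers were chosen after their values were seen. Alternatives were DESeq2 1.42.0, limma-trend (limma 3.58.1) on log2(TPM + 1), other scalings, no filter on low counts, a filter that kept genes with 50 counts in all and 1 CPM in 3 libraries, a block for the replicate number, and leaving out each library. Positions were read from the deposited transcript loci.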

Additional observations from a re-analysis of the deposited data

How the results depend on the processing

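Under the other scalings, filters and tools and with each library left out, edgeR and limma called 0 members of either genome. DESeq2 called 2 mitochondrially encoded genes. Over all genes, 188 were called higher and 54 lower, against 879 and 943 with DESeq2, 60 and 9 without the filter, and 94 lower with the stricter filter. With 1 library left out, 11 to 451 genes were called higher and 0 to 274 lower, and the cause was not tested. With the replicate number as a block the counts were 21 higher and 1 lower, and 0 called genes in the carrier list. Deviations of same-numbered libraries correlated at -0.161, 0.288 and -0.161, and those of differently numbered libraries at -0.320 to 0.375. With 3 libraries a group, these values cannot settle whether the numbers pair the libraries. DESeq2 called 1 mitochondrial ribosomal protein gene, and 2 higher and 1 lower in the carrier list. With library size alone, limma or no filter, 0 were called higher in that list, and 0 to 2 with 1 library left out. The median log2 fold change of nuclear complex I was 0.0091 with library size alone, 0.0073 with the stricter filter and -0.051 to 0.035 with 1 library left out. On TPM the log2 ratio of the nuclear share was 0.0068, against -0.039 on counts. Signs near 0 turned for cox-5A (-0.0019 with library size alone, -0.0090 with the stricter filter, -0.010 with upper-quartile factors) and asb-2 (0.0035 with limma). With 1 library left out, log2 fold changes ran from -0.76 to 0.28 for ND3, -0.66 to 0.12 for asb-1, -0.12 to 0.033 for asb-2, -0.055 to 0.010 for atp-2, -0.086 to 0.057 for cox-5A, -0.085 to 0.11 for sdha-1 and -0.012 to 0.089 for ucr-2.1. With 3 libraries a group, the median standard error of 0.091 limits what could be called among nuclear genes.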

Other observations

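Another complex III gene, ucr-2.1, was divided between 2 transcripts in the deposited table. The longer one had 110.1, 143 and 145 TPM in the ilimaquinone libraries, against 124, 122 and 101 TPM in the vehicle libraries. The shorter one had 90.9, 40.4 and 45.3 TPM in the ilimaquinone libraries, against 67.8, 71.6 and 67.6 TPM in the vehicle libraries. Ilimaquinone library 1 was the highest for the shorter transcript and libraries 2 and 3 of that group were the lowest, so the vehicle libraries lay between them. The ATP synthase gene atp-3 kept most of its level on a single transcript, at 94.0% with ilimaquinone and 96.2% with vehicle. These values come from the authors' transcript TPM and were not tested.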
